A study of Homo sapiens with 2 samples.

Results

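The genes described here are PMP22, BASP1, CTNND2, TUBB3, KCNJ3, SOX2 and MAOB, all best known from nerve tissue. They were picked by symbol, with their measured values already known, and all 7 are among the 2046 genes of the table. RNA came from the human triple-negative breast cancer line MDA-MB-231, with 1 library from TMEM25 knockout cells (genotype TAMER-/-) and 1 from wild-type cells (genotype TAMER+/+). TAMER is read here as TMEM25, a transmembrane protein, because the series' design text names that gene as the one knocked out. The medium of both cultures was DMEM with serum, and whether the knockout is 1 clone or a pool is not given in the sources used here. With 1 library a genotype, no difference has a replicate check, no test was made, and all counting intervals cover counting error only. All 2046 genes have a knockout value of at least 1 that is at least 2 times the wild-type value. Each of the 7 is thus higher in the knockout library by selection. TMEM25 itself was not analysed here.

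As background, the 7 genes belong to different parts of nerve biology. PMP22 is a membrane protein of the myelin that Schwann cells wrap around peripheral axons. BASP1 is a membrane-attached protein of growth cones, and CTNND2, delta-catenin, links cadherins to the cytoskeleton of dendrites. TUBB3 is the beta-tubulin used as a label of neurons. KCNJ3 is a subunit of the potassium channel that G protein beta-gamma dimers open after inhibitory transmitters bind their receptors. SOX2 is a transcription factor of embryonic and neural stem cells, and MAOB, an enzyme of the mitochondrial outer membrane, oxidises dopamine and phenylethylamine. None of them is restricted to nerve, since each is also made in some epithelia, muscle, liver or tumours.

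The libraries differed for many genes besides these. The knockout library had 4138956 reads over the 2046 genes and the wild-type library 1046999, of which the 7 genes took 26551 in the knockout and 550.1 in the wild type. These sums cover only genes higher in the knockout and are not library depths. The identity of the knockout library was taken from the value, count and ratio headers, because the log2 columns are headed the other way round in 2046 of 2046 genes. If the log2 headers were the right ones, every difference given here would have the opposite direction. Of 13 markers of luminal breast cells, 3 were in the table, TFF1, TFF3 and EPCAM, each higher in the knockout by selection. The other luminal markers were not analysed here. The deposited values of TFF1, TFF3 and EPCAM summed to 6468 in the knockout and 150.4 in the wild type. Most of that sum was TFF1, at 5920 in the knockout and 0.94 in the wild type. Of 15 basal and mesenchymal markers and of 15 fibroblast, endothelial and leukocyte markers, none were in the table, and their levels were not analysed here. The part that these differences between the libraries play in the values below was not tested. In bulk RNA, more cells that make a gene and more RNA per cell cannot be told apart.

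The 7 genes formed a group that was nearly silent in the wild-type library and a group that was not. PMP22 had 3 wild-type reads, BASP1 had 1, and CTNND2, KCNJ3 and MAOB had 0, so that 5 of 7 had 0 to 3 wild-type reads, where 9.48% of all genes in the table did. The 3 genes with 0 wild-type reads compare with 4.89% of the table. TUBB3, with 202 wild-type reads, and SOX2, with 344, were the other two, well outside that range. On the log2((knockout + 1) / (wild type + 1)) scale of the deposited expression values, 7 of 7 exceeded the wild type at least 2-fold, as did 80.6% of all genes. At least 4-fold higher were 6 of 7, all but SOX2, and 21.3% of all genes. The median log2 ratio was 3.95 for the 7 genes, ranging from 1.79 to 8.32, and 1.33 for all genes. Since the genes were chosen on these values, the counts describe them and support nothing further. In the gene lists below, too, counts at least 2-fold higher stand against this 80.6%, in a table where every ratio is at least 2.

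**Figure D1:**
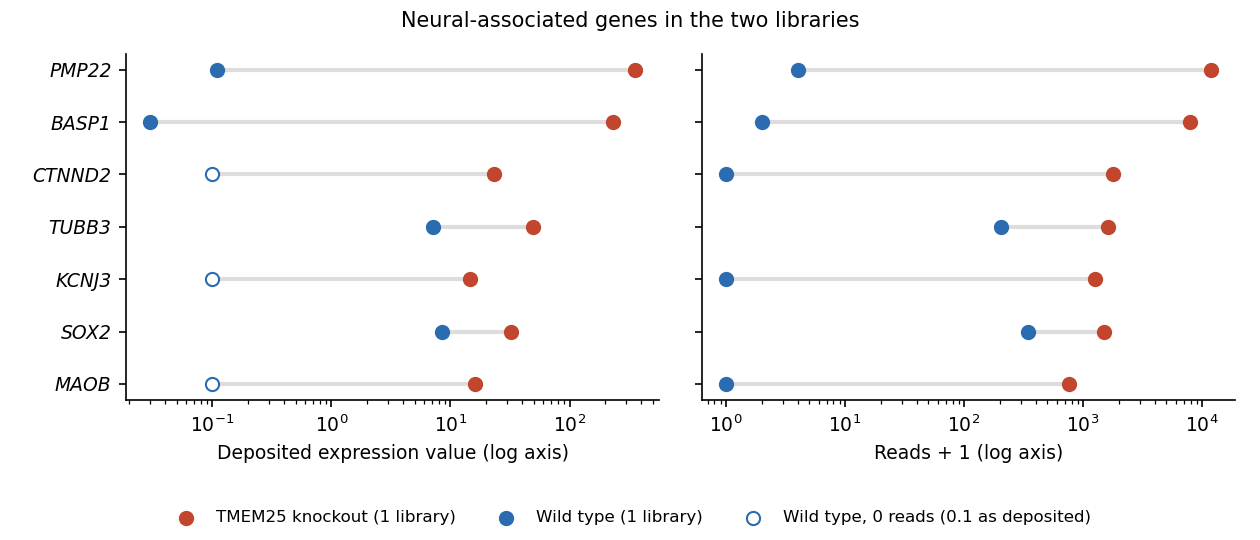
Deposited expression values (left) and reads plus 1 (right), both on log axes, for the 7 genes in the TMEM25 knockout library (red) and the wild-type library (blue), with 1 library each. Open circles mark the 3 genes with 0 wild-type reads, for which the authors' file holds 0.1; the widest gaps belong to PMP22 and BASP1, the narrowest to SOX2.

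The promoter windows of the 4 genes with 0 or 1 wild-type read are shown because these genes had next to no RNA in one library and at least 758 in the other. Each window runs from 250 bases before to 50 after the RefSeq start (build GRCh38.p14), 5′ to 3′ on the gene's strand, with every CG pair in capitals. BASP1 is at chr5:17216573-17216872 on the plus strand, CTNND2 (the more upstream of its starts) at chr5:11904397-11904696 on the minus strand, KCNJ3 at chr2:154698445-154698744 on the plus strand, and MAOB at chrX:43882401-43882700 on the minus strand.
BASP1: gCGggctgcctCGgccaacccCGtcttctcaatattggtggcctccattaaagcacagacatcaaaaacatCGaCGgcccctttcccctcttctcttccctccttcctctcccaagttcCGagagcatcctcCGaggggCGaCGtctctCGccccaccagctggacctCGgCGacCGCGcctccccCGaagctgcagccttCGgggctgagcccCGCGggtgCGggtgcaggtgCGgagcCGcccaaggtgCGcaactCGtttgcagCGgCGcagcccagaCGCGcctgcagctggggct
CTNND2: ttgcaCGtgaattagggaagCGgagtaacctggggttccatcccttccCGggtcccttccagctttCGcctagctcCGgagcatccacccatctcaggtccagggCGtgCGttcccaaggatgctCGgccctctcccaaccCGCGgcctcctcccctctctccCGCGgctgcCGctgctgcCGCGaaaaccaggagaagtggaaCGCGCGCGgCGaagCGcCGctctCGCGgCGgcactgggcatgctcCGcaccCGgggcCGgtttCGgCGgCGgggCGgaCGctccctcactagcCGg
KCNJ3: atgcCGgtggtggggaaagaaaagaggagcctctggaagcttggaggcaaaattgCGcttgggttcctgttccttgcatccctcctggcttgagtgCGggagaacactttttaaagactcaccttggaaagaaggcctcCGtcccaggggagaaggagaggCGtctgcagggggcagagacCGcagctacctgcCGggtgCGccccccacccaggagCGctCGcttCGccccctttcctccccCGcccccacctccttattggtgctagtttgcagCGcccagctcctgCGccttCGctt
MAOB: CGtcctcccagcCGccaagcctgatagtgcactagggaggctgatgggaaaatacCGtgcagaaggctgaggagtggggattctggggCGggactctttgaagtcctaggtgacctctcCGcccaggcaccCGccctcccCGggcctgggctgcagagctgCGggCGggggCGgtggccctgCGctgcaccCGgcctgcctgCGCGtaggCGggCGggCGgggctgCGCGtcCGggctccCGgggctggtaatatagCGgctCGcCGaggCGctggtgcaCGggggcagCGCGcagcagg

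These windows hold 27 CG pairs for BASP1, 34 for CTNND2, 15 for KCNJ3 and 28 for MAOB. Over all 35116 windows of the RefSeq table the median was 14 (quartiles 4 and 28), and over the 2501 windows of genes in the expression table it was 23. SOX2, whose RNA was present in both libraries, has 20. PMP22 has 3 starts, with 2 CG pairs at the most upstream, 24 at the next and 36 at the most downstream, and TUBB3 has starts with 9 and 47. CTNND2's second start has 5. Of the 11 windows of the 7 genes, 8 lie above the median of all windows, and the 3 below it are alternative starts of PMP22, CTNND2 and TUBB3. Gene-level values do not say which start was used. On both strands, none of the 11 windows holds the letters TTCNNNGAA of a STAT site (found in 7.66% of all windows), the left and right RE1 elements TTCAGCACC (0.376%) and GGACAGC (6.03%), the SOX site ACAATGG (3.16%) or TATAAA (11.5%). This says only that these letters are not in these windows.

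PMP22 had the highest expression value of the 7 in the knockout, 353.94, against 0.11 in the wild type. It rested on 11759 knockout reads and 3 wild-type reads. Scaled for depth, the counts gave a read-count fold of 3393, and counting error alone allows 1161 to 16454 (95% interval). PMP22 ranked 52nd by knockout value in the table and was the highest of all 194 genes with 0 to 3 wild-type reads. The gene occupies positions 15229777 to 15265357 of chromosome 17 (GRCh38, minus strand), a span of 35.6 kb, and the antisense gene AC005703.3 overlaps it on the opposite strand. Of 16 genes of peripheral myelin and Schwann cells, the only other one in the table was MBP, myelin basic protein, at 5.79 in the knockout and 0.23 in the wild type, from 514 knockout and 17 wild-type reads. Its read-count fold was 26.2 (16.2 to 45.3, the 95% counting interval, as in parentheses after later folds). The remaining 14 were not analysed here.

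BASP1 stood close to PMP22. Its value was 233.32 in the knockout and 0.03 in the wild type, from 7914 knockout reads and 1 wild-type read, and it ranked 94th by knockout value. With a single wild-type read, the fold of 6850 could lie anywhere between 1229 and 270597 by counting error, a range that overlaps most of that of PMP22. The order of these genes by fold is therefore within counting error. BASP1 lies on the plus strand of chromosome 5 from 17065598 to 17276843, with the antisense gene BASP1-AS1 inside its span. Of 16 growth cone and axon growth genes, 5 were in the table and 4 of them were at least 2-fold higher on the log2(value + 1) scale. STMN3, a microtubule-destabilising stathmin of neurons, was at 35.69 in the knockout and 0.93 in the wild type, with a read-count fold of 38.8 (27.9 to 55.6). MARCKS, a membrane-attached substrate of protein kinase C, was at 14.64 in the knockout and 0.17 in the wild type, with a fold of 84.8 (48.4 to 164.6). DPYSL2, a mediator of axon growth through tubulin, had values of 12.78 in the knockout and 6.2 in the wild type and a log2 ratio of 0.94, short of 2-fold through the pseudocount, with a read-count fold of 2.06 (1.85 to 2.30).

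CTNND2 had 1772 knockout reads and 0 wild-type reads, at a knockout value of 23.11. With 3 reads standing for the wild-type count of 0, it was 511-fold higher in the knockout. The lower end of the 95% counting interval, which allows slightly more than 3 reads, was 415. At the knockout level, 1534 reads would have been counted in the wild-type library, where none were. It is the longest of the 7 genes, spanning 932.2 kb of chromosome 5 on its minus strand (10971840 to 11904043). Of 17 genes of the delta-catenin family and the cadherin junction, 3 were in the table and all 3 were at least 2-fold higher. PKP1, a desmosomal plakophilin of stratified epithelia from the same protein family, was at 9.52 in the knockout and 0.03 in the wild type, from 958 knockout and 3 wild-type reads, for a fold of 276 (94.3 to 1343). CDH3, P-cadherin, was at 47.61 in the knockout and 21.86 in the wild type, with a fold of 2.18 (2.04 to 2.32). PKP1, like CTNND2, was nearly silent in the wild-type library, whereas CDH3 had 1291 reads there. The close relative CTNND1 was not analysed here.

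TUBB3 was expressed in both libraries, at 49.0 in the knockout and 7.17 in the wild type, from 1604 knockout and 202 wild-type reads. This gave a read-count fold of 6.87 (5.93 to 7.996). The reads are not whole numbers, as in 43.7% of genes for the knockout, and those of KCNJ3 and MAOB are not either. Tubulin genes share much of their sequence, and how shared reads were counted is not given in the sources used here, so the level of TUBB3 is uncertain to that extent. TUBB3 lies on the plus strand of chromosome 16 from 89921392 to 89938761, where the protein-coding gene AC092143.1 overlaps it on the same strand. Of 20 tubulins, 3 were in the table, all at least 2-fold higher, which 80.6% of all genes were. TUBB2A, another beta-tubulin abundant in neurons, was at 10.22 in the knockout and 3.38 in the wild type, with a fold of 3.03 (2.38 to 3.90), below the interval of TUBB3. TUBD1, the delta-tubulin of centrioles, was at 58.65 in the knockout and 9.58 in the wild type, with a fold of 6.30 (5.62 to 7.07), within counting error of TUBB3.

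Of 18 microtubule-associated genes of neurons, 6 were in the table and all 6 were at least 2-fold higher, with a median log2 ratio of 1.46. TBCB, a tubulin folding cofactor, was the most abundant at 146.87 in the knockout and 30.13 in the wild type. MAP7, which recruits kinesin to microtubules, was at 29.93 in the knockout and 14.27 in the wild type, a log2 ratio of 1.02. TTL, the tubulin tyrosine ligase, was at 11.37 in the knockout and 4.27 in the wild type, and KIF5C, a neuronal kinesin heavy chain, at 3.78 in the knockout and 0.12 in the wild type from 450.2 knockout and 11.03 wild-type reads. DCLK1, a doublecortin-like kinase named after its values were seen, had 205 knockout reads and 0 wild-type reads, at a knockout value of only 1.45.

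KCNJ3 had 1253 knockout reads and 0 wild-type reads, at a knockout value of 14.5. Against 3 reads it was 362-fold higher in the knockout, with a lower end of the counting interval of 294. By the same scaling, 1085 wild-type reads would have been counted at the knockout level. The gene lies on the plus strand of chromosome 2 from 154698299 to 154858352. Of 16 inward rectifier potassium channels, the other one in the table was KCNJ13, at 1.21 in the knockout and 0.42 in the wild type, a log2 ratio of 0.64 that falls short of 2-fold through the pseudocount of 1. Its read-count fold was 3.05 (1.90 to 5.08). The subunits KCNJ5, KCNJ6 and KCNJ9, with which the KCNJ3 product forms channels, were not analysed here. Among 30 other potassium channel genes, 4 were in the table and all 4 were at least 2-fold higher, against 80.6% of all genes. KCNE4, an accessory subunit that inhibits voltage-gated channels, was at 76.76 in the knockout and 0.32 in the wild type, for a fold of 231 (143.9 to 396). KCNK1, a background leak channel, was at 13.29 in the knockout and 4.74 in the wild type, KCNN4, the calcium-activated channel of blood cells and epithelia, at 7.49 in the knockout and 0.91 in the wild type, and KCNS3, a modifying subunit, at 16.69 in the knockout and 2.13 in the wild type. KCNE4 was thus more abundant in the knockout than KCNJ3 on the per-length scale.

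The G protein subunits that act on KCNJ3-containing channels gave 3 of 20 in the table, all at least 2-fold higher. The beta subunit GNB2 was at 251.95 in the knockout and 62.51 in the wild type, and GNB5, the beta subunit that pairs with RGS proteins, at 17.42 in the knockout and 3.20 in the wild type. GNAI3, an inhibitory alpha subunit, was at 53.35 in the knockout and 20.11 in the wild type. Their read-count folds were 4.03 (3.82 to 4.26) for GNB2, 5.39 (4.53 to 6.47) for GNB5 and 2.65 (2.51 to 2.81) for GNAI3. All 3 had reads in both libraries, unlike KCNJ3, with the fewest in the wild type for GNB5, 146.

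SOX2 had the smallest difference of the 7, with 32.01 in the knockout and 8.54 in the wild type, from 1491 knockout and 344 wild-type reads. Its read-count fold was 3.75 (3.33 to 4.23), and its log2 ratio of 1.79 ranked 553rd in the table. Centred on the median of all genes, that ratio was 0.46, so SOX2 was the only one of the 7 below 2-fold on that scale. SOX2 is a short gene of 2.51 kb on the plus strand of chromosome 3 from 181711924 to 181714436, inside the span of SOX2-OT on the same strand. Of 20 SOX family genes, 3 were in the table and all 3 were at least 2-fold higher. SOX3, a close relative of SOX2 made in neural progenitors, had 98 knockout reads and 0 wild-type reads, at a knockout value of only 2.56. Against 3 reads SOX3 was 28.3-fold higher in the knockout (lower end of the interval 22.6). SOX18, a factor of vessel development, was at 4.72 in the knockout and 0.63 in the wild type. Of 21 pluripotency and neural stem cell genes, SALL4, a zinc finger partner of the pluripotency network, was at 2.10 in the knockout and 0.07 in the wild type, and MSI2, an RNA-binding protein of progenitors, at 51.05 in the knockout and 17.28 in the wild type. The other 18, the neural progenitor filament NES and the factor PAX6 among them, were not analysed here.

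MAOB had 758 knockout reads and 0 wild-type reads, at a knockout value of 16.02. Against 3 reads it was 219-fold higher in the knockout, with a lower end of the counting interval of 177. At the knockout level, 656 wild-type reads would have been counted. It is found at 43766611 to 43882447 of chromosome X, minus strand. MAOA, the related oxidase that acts on serotonin and noradrenaline, lies 19.8 kb away and was much lower, at 1.42 in the knockout and 0.21 in the wild type, from 141 knockout and 18 wild-type reads. Its read-count fold was 6.78 (4.14 to 11.8), so MAOB and MAOA differed in fold by more than counting error. Of 25 genes of monoamine synthesis, transport and breakdown, 7 were in the table, all at least 2-fold higher, with a median log2 ratio of 1.36, close to the 1.33 of all genes. SPR, an enzyme of tetrahydrobiopterin synthesis, was at 41.6 in the knockout and 15.55 in the wild type, and GCH1, the first enzyme of that pathway, at 21.45 in the knockout and 9.34 in the wild type. The transmitter-synthesising enzymes TH, DDC, DBH and TPH1 were not analysed here.

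**Figure D2:**
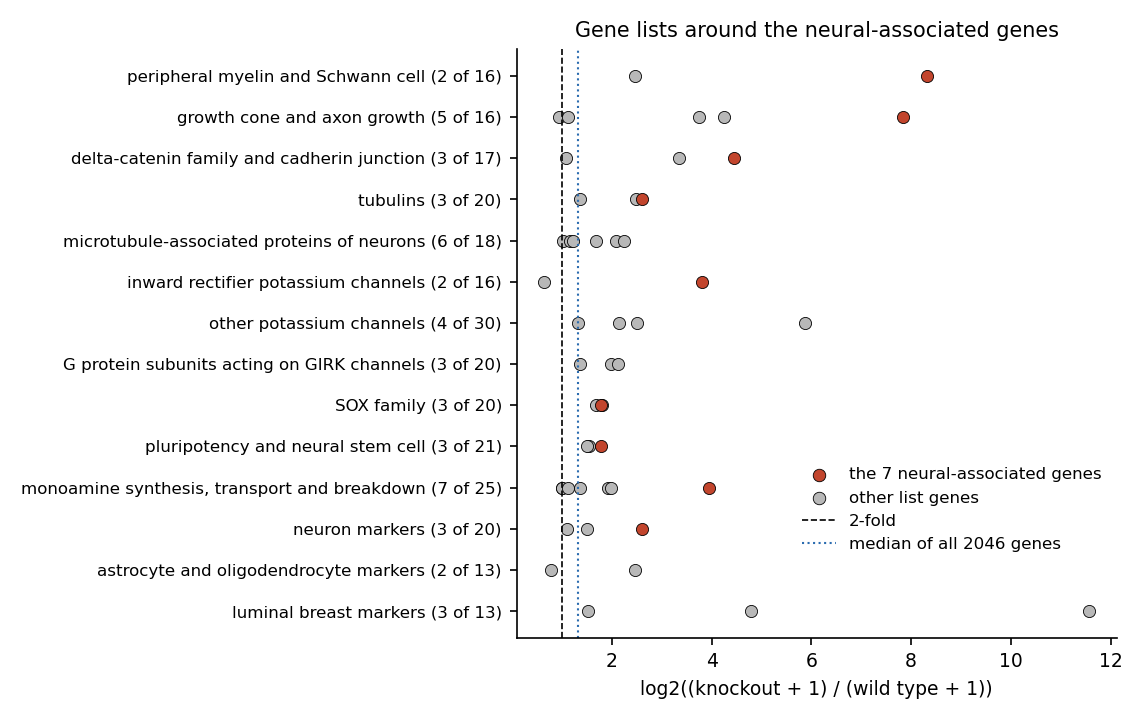
Each point is a list gene that was in the table, placed by its log2((knockout + 1) / (wild type + 1)), with the number present of the list's length beside its name. A neural-associated gene (red) lies furthest right in the myelin, growth cone, catenin, tubulin, inward rectifier, pluripotency, monoamine and neuron marker lists. The other genes of these lists (grey) lie between 0.64 and 4.25. Among tubulins the lead is small, TUBB3 at 2.61 and TUBD1 at 2.50. In the SOX family SOX18 (1.81) lies just right of SOX2 (1.79). The dotted line marks the median of all genes, 1.33.

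Across the 17 lists, 47 of 294 distinct genes were in the table, 40 of them besides the 7. Of those 40, 37 were at least 2-fold higher (92.5%), against 80.6% of all genes, and 3 had 0 to 3 wild-type reads, namely PKP1, DCLK1 and SOX3. The 40 genes had a median log2 ratio of 1.53, against 1.33 for all genes. Of 20 neuron markers, ENO2, neuronal enolase, was at 18.76 in the knockout and 6 in the wild type, and SYT1, a synaptic vesicle calcium sensor, at 6.25 in the knockout and 2.37 in the wild type, beside TUBB3. Together the values of ENO2 and SYT1 summed to 25.01 in the knockout and 8.37 in the wild type. The other 17, the nuclear marker RBFOX3 and the vesicle proteins SYP and SNAP25 among them, were not analysed here. Of 13 astrocyte and oligodendrocyte markers, MBP and the glutamate transporter SLC1A2, at 1.15 in the knockout and 0.25 in the wild type, were in the table, and their summed value was 6.94 in the knockout and 0.48 in the wild type.

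**Figure D3:**
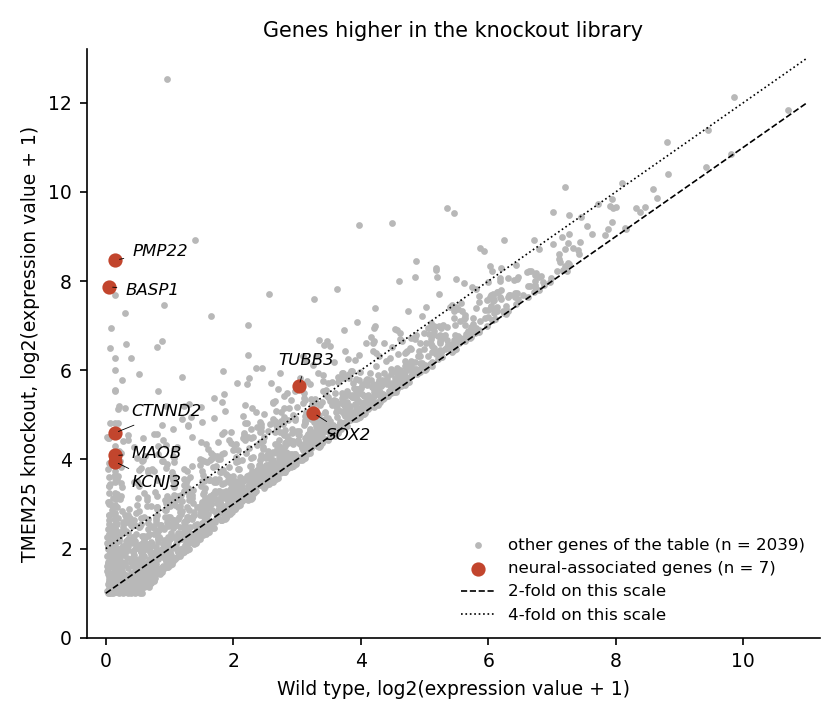
Knockout (vertical axis) and wild-type (horizontal axis) deposited values of all 2046 genes on the log2(value + 1) scale, with the 7 genes in red. PMP22, BASP1, CTNND2, MAOB and KCNJ3 lie along the left edge, where wild-type values are near 0, while TUBB3 lies just above and SOX2 just below the 4-fold line.

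The 5 genes with 0 to 3 wild-type reads were among the more abundant of their kind in the knockout. The 194 such genes had a median knockout value of 2.23, with quartiles of 1.42 and 5.13. Like all genes of the table, they have a knockout value of at least 1, so genes below that level are not among them. PMP22 and BASP1 held ranks 1 and 2 among them by knockout value, CTNND2 rank 10, MAOB rank 17 and KCNJ3 rank 22. The median gene of this kind rested on 104 knockout reads, while these 5 rested on 758 to 11759. Counting error alone did not bring the read-count fold down to 2 for any of the 7 genes, and the lower limit exceeded 2 for 76.5% of all genes.

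**Figure D4:**
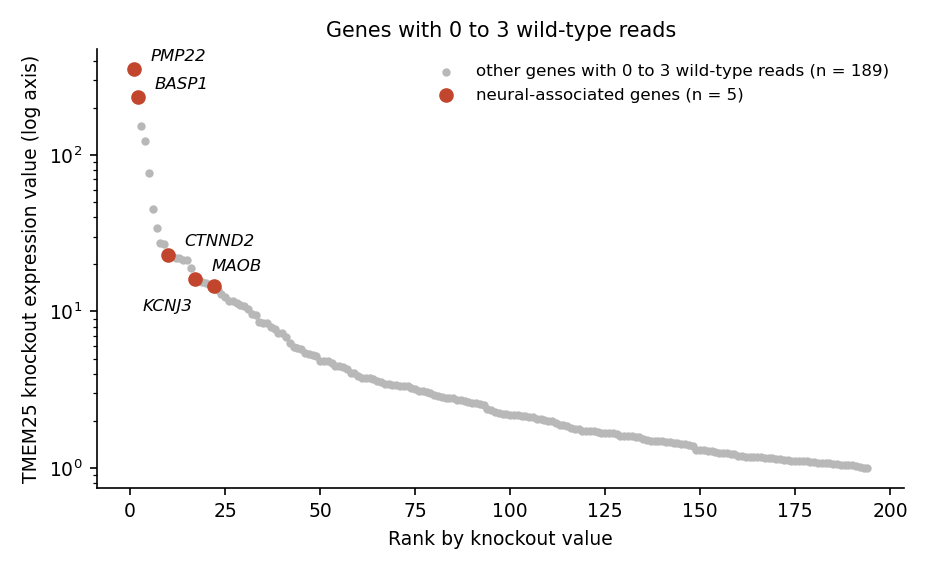
Knockout expression value (log axis) of the 194 genes with 0 to 3 wild-type reads, ranked from highest to lowest. The 5 neural-associated genes (red) hold ranks 1, 2, 10, 17 and 22, and most other genes (grey) lie below 5.13.

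The deposited wild-type values of CTNND2, KCNJ3 and MAOB are not measurements. In all 100 genes with 0 wild-type reads the authors' table holds 0.1, whatever the gene's length. At the reads per unit of expression seen in the knockout, 0.1 would equal 6.64 wild-type reads for CTNND2, 7.48 for KCNJ3 and 4.10 for MAOB, while 3 reads would equal 0.045, 0.040 and 0.073. The ratios in the authors' deposited table are thus smaller than the read-count folds against 3 reads. They are 231 and 511 for CTNND2, 145 and 362 for KCNJ3, and 160.2 and 219 for MAOB. The lower ends of the counting intervals, 415, 294 and 177, are also above those ratios. BASP1, with 1 read, has a deposited value of 0.03, lower than the 0.1 given to genes with none. Of the 94 genes with 1 to 3 wild-type reads, 71 likewise have a value below 0.1. BASP1 leads all 2046 genes by the ratio in the authors' deposited table, 7777, and PMP22 ranks 3rd at 3218. Among nearly silent genes, the order of these ratios therefore mixes replaced values with single reads. For TUBB3 and SOX2, with at least 202 reads in each library, the authors' deposited table gives 6.83 and 3.75, the same as the read-count folds within counting error.

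**Figure D5:**
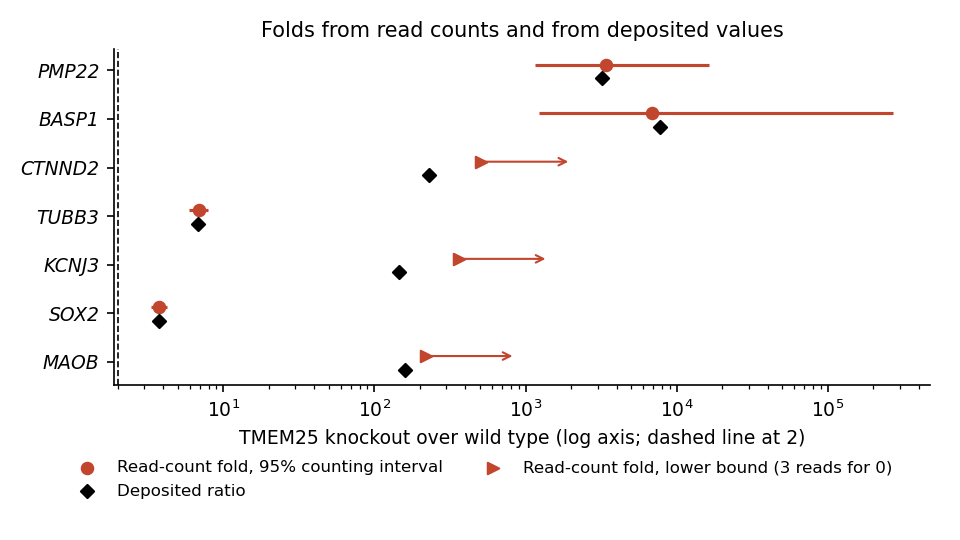
Knockout over wild type for each gene on a log axis, as the read-count fold (red, with its 95% counting interval, or an arrow from the lower bound where the wild-type count was 0) and as the ratio in the authors' deposited table (black). The deposited ratio lies below the bound for CTNND2, KCNJ3 and MAOB and inside the interval for the other 4 genes.

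The genes whose pair of values was most like each member, by Euclidean distance in log2(value + 1) over the 2 libraries, had varied functions. PMP22 lay nearest to BASP1 (distance 0.61) and then to SULF2, an extracellular sulfatase (0.79), which also lay nearest to BASP1 (0.22). CTNND2 lay nearest to GSTT1, a glutathione transferase (0.03), with 396 knockout reads and 0 wild-type reads, and to NRP1, a co-receptor for semaphorins and VEGF (0.11). KCNJ3 lay nearest to SNX7, a sorting nexin, and TNFRSF11B, the decoy receptor osteoprotegerin. MAOB lay nearest to LPIN2, a phosphatidate phosphatase, and WIPF1, an actin regulator. These 4 genes and GSTT1 all had 0 wild-type reads, so their shared wild-type value is the 0.1 of the authors' table. TUBB3 lay nearest to TBC1D9 and HEATR6, and SOX2 to NSMF, a synapse-to-nucleus messenger, and RNASET2, a lysosomal ribonuclease. With 2 libraries, such likeness describes the pairs of values only.

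Of the 14 protein-coding genes that flank the 7 in GENCODE 29, 1 on each side, 7 were in the table, beside 10.1% of all 19969 protein-coding genes, whose activity in these cells is mostly not known here. Each of the 7 genes had exactly 1 such neighbour. NR4A2, an orphan nuclear receptor of dopamine neurons, lies 1466 kb from KCNJ3 and was at 22.66 in the knockout and 0.68 in the wild type, for a read-count fold of 33.9 (24.1 to 49.1). TEKT3, a ciliary tektin next to PMP22 at 38.5 kb, was at 1 in the knockout and 0.06 in the wild type, from 41 knockout and 2 wild-type reads, and MAOA next to MAOB is described above. The other 4 had smaller read-count folds, although their log2 ratios of 1.05 to 1.49 exceeded the 0.92 of TEKT3 and the 1 of MAOA, both low in level. MYO10, an unconventional myosin of filopodia next to BASP1, had a fold of 3.22 (2.90 to 3.59), DAP next to CTNND2 one of 2.40 (2.25 to 2.56) and ATP11B next to SOX2 one of 2.56 (2.33 to 2.81). DEF8 next to TUBB3 had a fold of 1.45 (1.29 to 1.64), although its deposited values, 22.84 in the knockout and 10.5 in the wild type, give a larger ratio. The 5 nearly silent genes thus had neighbours with 2 to 1317 wild-type reads. The flanking gene MC1R, 0.415 kb from TUBB3, was not analysed here.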

How the data were processed

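Messenger RNA was sequenced from 1 library of each genotype. Per the submitters' processing notes, CASAVA 1.4, HISAT2 2.0.4 and build GRCh38.p12 were used. How reads were counted, with which annotation and whether by strand, is not given in the sources used here. Per the file headers, the authors deposited an expression value (a signal scaled for length and depth, FPKM or TPM not named), an estimated count of reads, not always whole, the ratio or fold of the expression values, and log2 columns whose headers are crossed, which were not used. The number of sample columns not matched to a sample was 0.

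The members and gene lists were chosen with earlier results of these data known. Genes named are the 7 members, up to 4 genes a list with the highest mean value, the 2 nearest genes and the flanking genes of each member. Some list genes that this rule names are not reported here. The log2 ratio used a pseudocount of 1, so it understates low genes, and the threshold was 2-fold by size. The read-count fold divided the ratio of counts by 1.16, the median difference between libraries in reads per expression unit (1133 genes, at least 100 wild-type reads each). Its 95% interval is the exact binomial interval conditional on the rounded total, and 3 reads stand for 0. The interval was checked on simulated data only for genes with more wild-type reads, and smaller folds, than PMP22, BASP1, CTNND2, KCNJ3 and MAOB. That check does not cover the intervals of these genes. Without molecular identifiers, reads need not be independent molecules. Gene coordinates are from GENCODE 29 (GRCh38), joined by Entrez number. Promoter windows are from RefSeq (GRCh38.p14), matched by Entrez number for 7 of 7 genes. Python 3.11.15, pandas 2.3.3 and scipy 1.17.1 were used.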

Additional observations from a re-analysis of the deposited data

How the results depend on the processing

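Of the 7 neural-associated genes, 7 exceeded the wild type at least 2-fold, and the count was also 7 with pseudocounts of 0.1 and 5, with a mean value of at least 5, by the ratio in the authors' deposited table, by read counts and by the lower limit of the counting interval, and was 6 by the 4-fold rule and after centring on the median of all genes. Of 40 other list genes, 37 were at least 2-fold higher, but 20 with a pseudocount of 5, 24 with a mean value of at least 5, 13 by the 4-fold rule and 9 after centring, each lower by construction. The mean-value filter also removes genes from the 40, so 24 is not a share of 40. For the other pseudocounts, the mean-value filter, read counts and centring, the share of all genes was not computed. Those counts cannot be set against the table as a whole. Over the 7 genes, 56 alternative values of the log2 ratio and the read-count fold were computed and none changed sign (0 reversed). With every deposited ratio at least 2, the pseudocounts, the mean-value filter and the deposited ratio could not change it. Counts with no scaling only raised the folds. Of the 56 values, 21 moved past the upward or downward width of the counting interval. That interval has no upper limit for the 3 genes with 0 wild-type reads. Size factors from the listed genes divided the counts by 3.66 and gave folds of 1070 for PMP22, 2160 for BASP1, 2.17 for TUBB3 and 1.18 for SOX2. With 3 reads standing for 0, they gave 161 for CTNND2, 114 for KCNJ3 and 69.0 for MAOB. Centring on the median and these size factors both take a table selected for higher knockout values as a shift between libraries. No paired analysis was possible because each genotype has 1 library. Wild-type counts of 0 to 3 limit the folds of 5 genes to bounds or wide intervals.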
